A study of Homo sapiens with 6 samples.

Results

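Cullins are elongated scaffold proteins, and RING box proteins are the small zinc-binding subunits that sit at their C-terminal end and recruit the ubiquitin-conjugating enzyme. Together they form the core of the cullin-RING ubiquitin ligases, in which the N-terminal end of the cullin holds an adaptor and an exchangeable receptor that picks the protein to be tagged. The ligases are switched on when the ubiquitin-like protein NEDD8 is joined to the cullin and switched off when the COP9 signalosome removes it. In clear cell renal carcinoma the family is best known for the ligase of CUL2 and VHL, which marks hypoxia-inducible factors for degradation.

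The family comprised 10 genes by a list of symbols: CUL1, CUL2, CUL3, CUL4A, CUL4B, CUL5, CUL7, CUL9, RBX1 and RNF7. All 10 were found on the array, out of 18132 genes, through 27 of the 44988 probe sets that the array's annotation assigns to exactly 1 gene symbol. RNA came from 786-O cells, which the labels give as 786O, an established human line from a clear cell carcinoma of the kidney. Lentivirus had delivered a short hairpin RNA (shRNA) to every culture, and 3 arrays carried a negative control hairpin (shNC) while the other 3 carried a hairpin against PLEKHO1 (shPLEKHO1). PLEKHO1 encodes an adaptor protein with a pleckstrin homology domain that binds the ubiquitin ligase SMURF1. The labels describe 1 hairpin group against PLEKHO1 and no uninfected cells. They do not say whether replicates were separate cultures, so a p-value here reflects array-to-array spread that may be purely technical. In RNA from whole cultures, fewer cells with a transcript and less of it per cell cannot be told apart.

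Median intensity per array lay between 55.7 and 57.1, and log2 values correlated at 0.998 within groups and at 0.988 to 0.989 across them. The targeted gene fell: its single probe set read 135, 143 and 126 with shNC and 110, 116 and 97.4 with shPLEKHO1, a drop of 19.9% (log2 difference of -0.32 ± 0.08, limma adjusted p = 0.0124; exact two-sided permutation p = 0.1, the smallest that 3 against 3 arrays allow). Of 9 measured markers of renal epithelium and clear cell carcinoma, every one, PAX8, KRT18 and EPAS1 included, was above the control probe set for background of 20 GC bases, while 4 of 4 lymphoid and myeloid markers, 2 of 3 endothelial and 4 of 5 fibroblast markers were below it. The summed intensity of the renal markers ranged from 26844 to 27145 with shNC and from 27941 to 28329 with shPLEKHO1, a sum of which VIM made up the largest share. Of these 9 markers, 3 rose, namely KRT8 (0.32), KRT18 (0.52) and EPAS1 (0.54 on the log2 scale). Another 4 fell, namely PAX8 (-0.25), PAX2 (-0.33), NNMT (-0.58) and CDH6 (-0.96). The fibroblast markers summed to 133 to 151 and to 143 to 175, and among them LUM rose (25.7 to 45.8 in mean intensity). The part of these marker changes in the results below was not tested.

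Differences are log2(intensity + 1) with shPLEKHO1 less that with shNC, ± SE, with n = 3 arrays per group. A probe set "rose" or "fell" where its adjusted p in limma, taken over all 44988 probe sets, was under 0.05. A level of one probe set cannot be compared with that of another, because probes differ in their affinity. In the probe set names, _a_at marks probes shared by several transcripts of a gene, _s_at probes that several transcripts or genes can share, and _x_at probes that can also catch unrelated sequence.

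The cullins moved in different directions. Every probe set of CUL1, CUL2 and CUL4A was higher with shPLEKHO1, CUL3 was higher by 2 of its 4 probe sets, CUL4B was lower by 2 of its 3, and CUL5 gave both directions. CUL9 was lower by its single probe set, whose groups overlapped and whose call was lost in 5 of 13 alternatives. Of the RING box genes, RNF7 was lower by all 4 of its probe sets, by as much as 1.68-fold. Of these 4, 2 were below the control probe set for background of 20 GC bases. Neither probe set of RBX1 passed. In all, 10 probe sets of the family rose, where 17.3% of all probe sets did, and 9 fell, where 15.7% did. The 19 changed probe sets made up 70.4% of the 27, against 33.0% of all probe sets. Bright probe sets passed more often in general: in the brighter part of the array, above the median probe set, 52.5% changed, and of the family's 21 such probe sets 16 did. The groups did not overlap in 19 of the 27 probe sets, against 44.5% of all. Probe sets of the same gene are not independent of each other, so these shares carry no test.

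**Figure D1:**
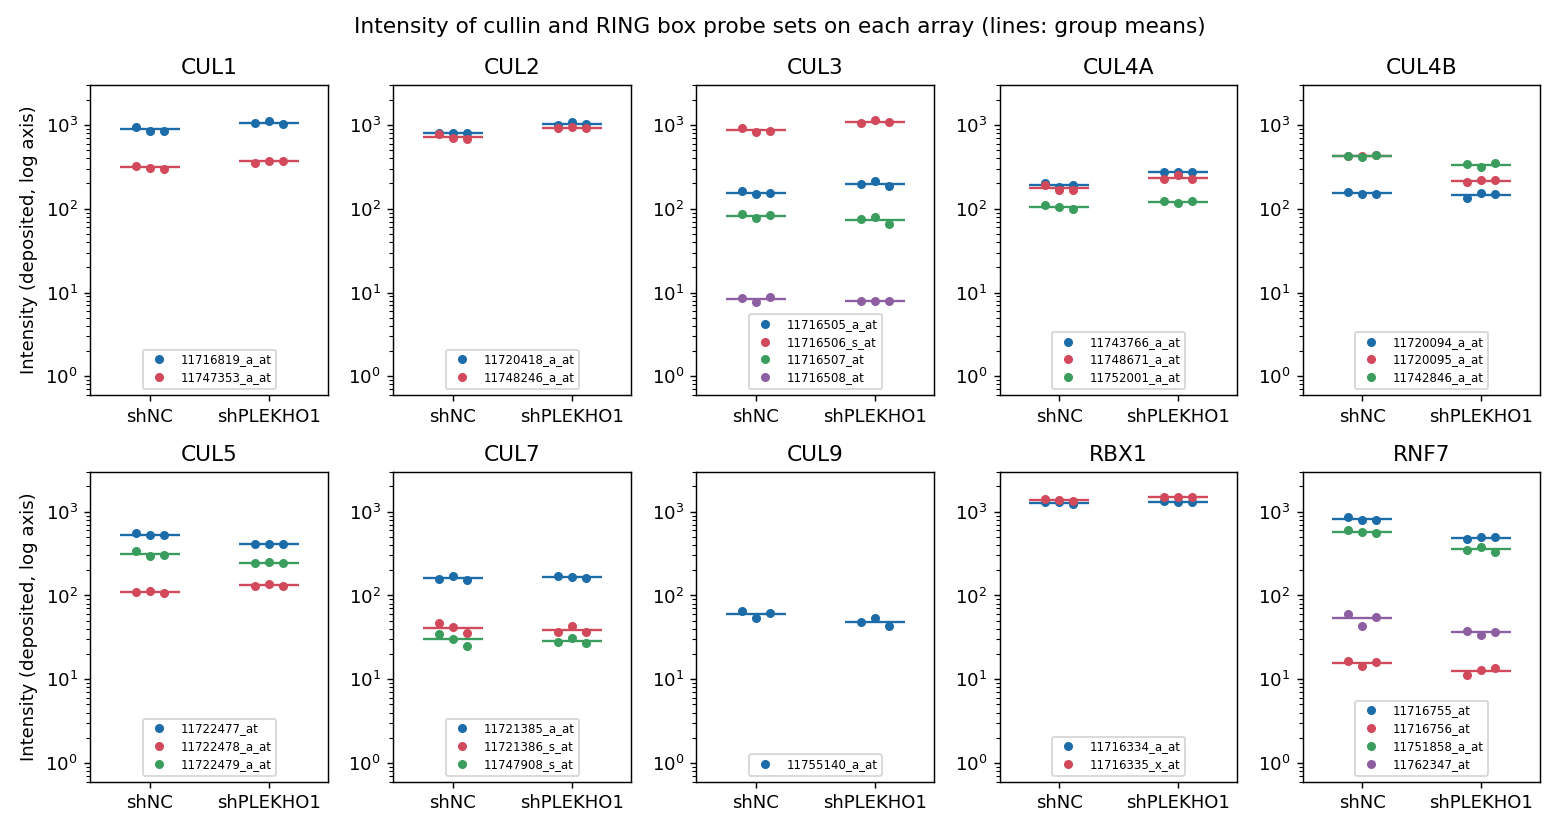
Deposited intensity (log axis) of all 27 cullin and RING box probe sets on the 3 shNC and the 3 shPLEKHO1 arrays, with 1 panel per gene, 1 colour per probe set, a point per array and a line at each group mean. Points of CUL1, CUL2 and CUL4A sit higher with shPLEKHO1 and those of RNF7 sit lower, whereas both probe sets of RBX1 stay between 1247 and 1512.

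Changes were of modest size. The median absolute log2 difference was 0.32 over the family and 0.12 over all probe sets. That contrast was not matched for brightness, and 21 of the family's 27 probe sets lay above the median probe set. None of the family reached 2-fold, and only 3 probe sets, 1 of CUL4B and 2 of RNF7, passed 1.5-fold. The signed medians were near zero, at -0.05 for the family and 0.01 for all probe sets. Arrays of a group agreed closely, with a median SD of 0.06 (shNC) and 0.05 (shPLEKHO1) on the log2 scale over the 27 probe sets.

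CUL1 is the scaffold of the SCF ligases, which use SKP1 and F-box proteins to reach cell cycle inhibitors and many phosphorylated targets. Its brighter probe set, 11716819_a_at, read 946, 855 and 854 with shNC and 1061, 1107 and 1034 with shPLEKHO1. All 3 values with the PLEKHO1 hairpin were above the 3 controls, and the rise was 1.20-fold (0.26 ± 0.05, limma adjusted p = 0.0047). The other probe set, 11747353_a_at, went from 322, 308 and 302 to 349, 374 and 375, again without overlap (0.24 ± 0.05, limma adjusted p = 0.00665). Both probe sets of CUL1 therefore rose, by about the same amount.

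CUL2, the partner of elongin B, elongin C and VHL, rose by both of its probe sets. On 11720418_a_at the control arrays lay within a narrow band, at 803, 799 and 800, and the shPLEKHO1 arrays at 1002, 1084 and 1014. The second, 11748246_a_at, read 771, 699 and 673 against 920, 949 and 921. The rises were 1.29-fold for each (0.36 ± 0.05 and 0.37 ± 0.05, limma adjusted p = 0.000804 and 0.000812), and neither pair of groups overlapped. VHL itself did not pass by its brightest probe set (0.02 ± 0.07, limma adjusted p = 0.882), while the other of its 2 probe sets fell (-0.53). These are RNA readings, and whether 786-O cells hold a working ligase of CUL2 and VHL was not tested.

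CUL3 builds ligases with BTB-domain receptors such as KEAP1 and SPOP. The probe set 11716506_s_at read 924, 819 and 849 with shNC and 1047, 1142 and 1089 with shPLEKHO1 (0.33 ± 0.05, limma adjusted p = 0.00162). A dimmer one, 11716505_a_at, went from 163, 151 and 154 to 197, 214 and 187 (0.36 ± 0.06, limma adjusted p = 0.00146). Both rose without overlap, 1.26-fold and 1.29-fold. The remaining pair of probe sets for CUL3 overlapped between groups and did not pass. On 11716507_at the values were 86.7, 76.7 and 84.1 against 75.4, 79.6 and 65.8, and the difference had the opposite sign (-0.17 ± 0.08, limma adjusted p = 0.150). On 11716508_at they were 8.63, 7.65 and 8.77 against 7.99, 8.02 and 8.02, near the control probe set for background of 14 GC bases, which averaged 7.72 and 7.92. With the mean of all 4 probe sets, CUL3 did not pass (0.12 ± 0.05, limma adjusted p = 0.117).

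CUL4A and CUL4B are close relatives that both build ligases with DDB1, used in DNA repair, replication licensing and chromatin control. CUL4A rose by all 3 of its probe sets. On 11743766_a_at it read 203, 181 and 190 with shNC and 274, 274 and 275 with shPLEKHO1. This was the largest rise among the family's probe sets, 1.45-fold (0.54 ± 0.05, limma adjusted p = 0.000104), and the groups were far apart. On 11748671_a_at the values were 194, 168 and 168 against 227, 250 and 228 (0.42 ± 0.06, limma adjusted p = 0.00105). The third, 11752001_a_at, went from 110, 105 and 99.7 to 122, 116 and 124 without overlap (0.21 ± 0.06, limma adjusted p = 0.0271). That last call was lost without shNC replicate 2 or 3 and without shPLEKHO1 replicate 1 or 3, with adjusted p from 0.0126 to 0.0983 over its alternatives.

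CUL4B went down, by amounts that depended on the probe set. On 11720095_a_at it read 421, 431 and 436 with shNC and 207, 219 and 222 with shPLEKHO1, the largest change of the family. The fall was 1.97-fold (-0.98 ± 0.06, 95% confidence interval from -1.11 to -0.85, limma adjusted p = 7.96e-06). On 11742846_a_at, the brightest by mean over all arrays, the values were 428, 411 and 433 against 337, 314 and 355 (-0.34 ± 0.07, interval from -0.49 to -0.18, limma adjusted p = 0.00519). On 11720094_a_at they were 159, 148 and 150 against 136, 152 and 150; here the groups overlapped and the probe set did not pass (-0.05 ± 0.06, interval from -0.18 to 0.08, limma adjusted p = 0.573). The intervals of the 3 probe sets barely met or did not meet, and which transcripts each one reads was not analysed here. As a mean over its probe sets, CUL4B fell (-0.45 ± 0.04, limma adjusted p = 9.82e-05).

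**Figure D2:**
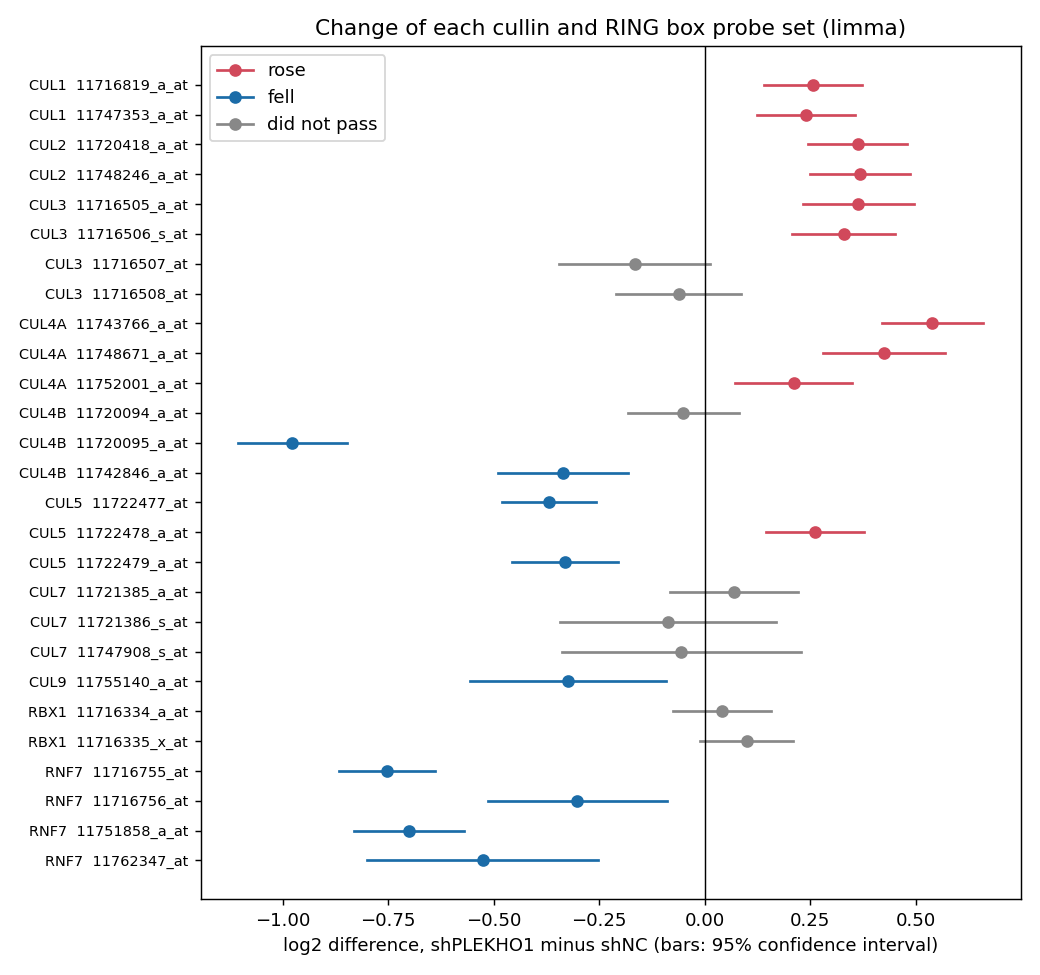
The log2 difference (shPLEKHO1 minus shNC, horizontal axis) of each of the 27 probe sets with its 95% confidence interval, coloured by whether it rose, fell or did not pass at an adjusted p under 0.05 in limma. CUL4B spans -0.98 to -0.05, CUL5 lies on both sides of 0, and all 4 probe sets of RNF7 lie between -0.75 and -0.30.

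CUL5 pairs with SOCS-box receptors, some of which end cytokine signalling, and takes RNF7 as its RING box partner. Of its 3 probe sets 2 fell and 1 rose. On 11722477_at it read 553, 522 and 521 with shNC and 415, 410 and 406 with shPLEKHO1, a fall of 1.29-fold (-0.37 ± 0.05, limma adjusted p = 0.000537). On 11722479_a_at the values were 337, 292 and 302 against 241, 250 and 241 (-0.33 ± 0.05, limma adjusted p = 0.00185). The third, 11722478_a_at, was the dimmest and went the other way, from 111, 114 and 107 to 130, 136 and 131 (0.26 ± 0.05, limma adjusted p = 0.00442). In none of the 3 did the groups overlap, so the direction of CUL5 depends on the probe set read; the mean of the 3 fell by 0.15 on the log2 scale (limma adjusted p = 0.0150).

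CUL7 and CUL9 are large, atypical members that form a complex with OBSL1 and CCDC8 (CUL7) or bind p53 (CUL9, also called PARC). No probe set of CUL7 passed. On 11721385_a_at it read 157, 172 and 154 with shNC and 172, 166 and 164 with shPLEKHO1 (0.07 ± 0.07, interval from -0.08 to 0.22). The other 2 were dim, at 24.9 to 46.4 over all arrays, in the range of the background control probe sets for 18 and 19 GC bases (29.7 and 45.9 with shNC), and their differences were -0.09 ± 0.11 and -0.06 ± 0.12. CUL9, measured by the single probe set 11755140_a_at, read 65.8, 54.0 and 62.0 with shNC and 47.7, 53.5 and 42.7 with shPLEKHO1. It fell 1.25-fold (-0.32 ± 0.10, limma adjusted p = 0.0392), although its groups overlapped on the normalized scale. Its mean was above the control probe set for background of 20 GC bases with shNC (60.6 against 55.3). With shPLEKHO1 it was below that control (48.0 against 59.8). The call for CUL9 was lost without shNC replicate 1 or 3 and without shPLEKHO1 replicate 1 or 3, with adjusted p from 0.0183 to 0.125 over its alternatives.

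RBX1 and RNF7, the RING box pair, differ in their partners: RBX1 serves CUL1, CUL2, CUL3, CUL4A, CUL4B and CUL7, while RNF7, also called SAG or RBX2, serves mainly CUL5. The bases before the start of each gene are shown here because these are the family's only RING box genes and their RNAs behaved differently. Each line gives the 250 bases before the start in the RefSeq promoter table of GRCh38.p14, 5′ to 3′ on the plus strand, with matches to 4 motifs in capitals. RNF7 lies at chr3:141738048-141738297 and RBX1 at chr22:40951128-40951377.
RNF7: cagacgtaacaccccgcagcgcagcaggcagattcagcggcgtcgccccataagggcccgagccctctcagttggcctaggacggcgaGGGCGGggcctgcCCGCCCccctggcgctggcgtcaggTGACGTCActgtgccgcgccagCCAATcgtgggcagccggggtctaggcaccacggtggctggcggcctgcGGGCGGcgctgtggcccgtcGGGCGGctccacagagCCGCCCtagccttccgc
RBX1: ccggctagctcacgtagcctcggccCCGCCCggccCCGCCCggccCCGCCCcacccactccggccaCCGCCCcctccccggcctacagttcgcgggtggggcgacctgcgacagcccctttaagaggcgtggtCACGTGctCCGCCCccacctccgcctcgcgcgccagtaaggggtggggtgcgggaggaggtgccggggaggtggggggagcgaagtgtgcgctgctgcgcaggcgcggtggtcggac

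The motifs, picked after the sequences were seen and searched on both strands, were the cyclic AMP response element TGACGTCA, the CCAAT box CCAAT, the GC box GGGCGG and the E-box CACGTG, and no match overlapped another. Both promoters were rich in G and C (74.0% for RNF7, 76.8% for RBX1) and each held 5 GC boxes, a motif present in 42.6% of the 35116 promoters of this length in the table. RNF7 held 1 TGACGTCA, starting 124 bases before the start site (1.65% of promoters hold it), and 1 CCAAT box at 102 bases (32.0%), which RBX1 lacked. RBX1 held 1 CACGTG at 117 bases (6.34%), which RNF7 lacked. A match is a description of the letters and not a bound site; no binding was measured here.

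RNF7 fell on every probe set. The brightest, 11716755_at, read 870, 799 and 793 with shNC and 469, 497 and 495 with shPLEKHO1, a fall of 1.68-fold (-0.75 ± 0.05, limma adjusted p = 1.49e-05). The next, 11751858_a_at, went from 605, 573 and 549 to 348, 380 and 334, or 1.62-fold lower (-0.70 ± 0.06, limma adjusted p = 4.19e-05). In both, the highest shPLEKHO1 array stayed well below the lowest control. The dimmer probe set 11762347_at read 60.6, 43.0 and 55.9 against 37.3, 34.1 and 37.0 (-0.53 ± 0.12, limma adjusted p = 0.00945). Its means of 53.2 and 36.2 were below the control probe set for background of 20 GC bases, at 55.3 and 59.8. The dimmest, 11716756_at, read 16.3, 14.6 and 16.2 against 11.3, 13.0 and 13.6 (-0.30 ± 0.09, limma adjusted p = 0.0359), beside a control probe set for background of 16 GC bases at 13.3 and 13.9. Its call was lost without shNC replicate 1 or 3 and without shPLEKHO1 replicate 1, with adjusted p from 0.0180 to 0.112.

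RBX1 was measured by a pair of bright probe sets that moved little. On 11716334_a_at it read 1297, 1296 and 1247 with shNC and 1329, 1296 and 1302 with shPLEKHO1, with overlapping groups (0.04 ± 0.05, interval from -0.08 to 0.16, limma adjusted p = 0.609). On 11716335_x_at the values were 1429, 1368 and 1352 against 1512, 1477 and 1476, which did not overlap but did not pass (0.10 ± 0.05, interval from -0.01 to 0.21, limma adjusted p = 0.159). Under a variance trend with robust fitting, this second probe set passed (limma adjusted p = 0.0220; over all its alternatives the adjusted p ran from 0.0220 to 0.341). The upper bounds of these intervals correspond to rises of RBX1 of less than 1.2-fold.

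Related genes can be compared within each array, as the log2 ratio of their brightest probe sets; its absolute value has no meaning across probes, but its change between groups does. The ratio of CUL4A to CUL4B went from -1.15 ± 0.08 with shNC to -0.28 ± 0.09 with shPLEKHO1 (SD, n = 3), a change of 0.88 ± 0.07 (SE). For RBX1 to RNF7 the ratio went from 0.75 ± 0.04 to 1.60 ± 0.06 (SD, n = 3), a change of 0.85 ± 0.04 (SE). In both pairs the 3 arrays of each group lay apart from those of the other. The exact two-sided permutation test gave p = 0.1 for each, the smallest that this design allows. Both outcomes follow from the single probe sets, whose groups already lay apart in opposite directions, so they add no separate evidence. With these probe sets kept, 9 alternatives gave changes between 0.83 and 0.92 for the CUL4 pair. For the RING box pair the changes lay between 0.82 and 0.87. Median centring and no normalization between arrays could not differ here, because a shift of a whole array cancels in the ratio. The size depended on the probe sets chosen: over all 9 pairs of a CUL4A and a CUL4B probe set the change ran from 0.26 to 1.52, and over all 8 pairs of an RBX1 and an RNF7 probe set from 0.34 to 0.85.

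**Figure D3:**
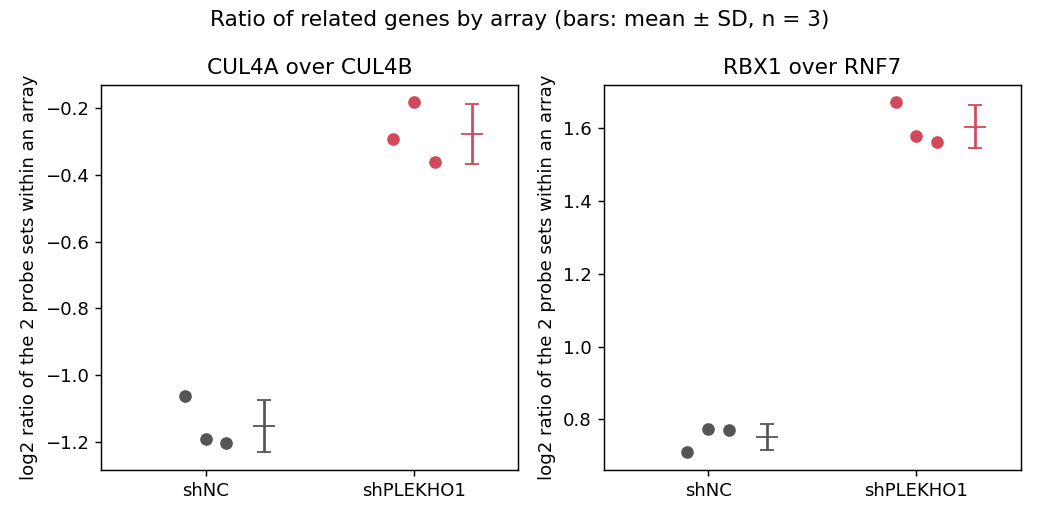
The log2 ratio within an array (vertical axis) of CUL4A to CUL4B and of RBX1 to RNF7, by group, with a point for each of the 3 arrays and the mean ± SD beside them. Both ratios are higher on each shPLEKHO1 array than on any shNC array, by 0.88 and 0.85 on average.

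The genes that work with the cullins were read in 11 lists by role, each gene represented by the brightest of its probe sets, by mean over the 6 arrays. Of 142 listed genes 135 were measured, and the other 7 were not analysed here. Of the 135, 41 rose (30.4%), 38 fell (28.1%) and 56 did not pass. Over all genes read in the same way, 17.6% rose and 15.6% fell, and the median log2 difference was 0.01. Partner genes were mostly bright: 114 lay above the median probe set, of which 74 changed (64.9%), against 51.4% of all genes that bright.

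Of 9 measured genes that attach NEDD8 to cullins, 5 rose and 1 fell, with a median of 0.20. UBE2M was listed as well but was not among the measured genes. NEDD8 itself read 2979, 2801 and 2720 with shNC and 3333, 3316 and 3386 with shPLEKHO1 (0.25 ± 0.05, limma adjusted p = 0.0042), and all 3 of its probe sets rose. DCUN1D1 (0.38 ± 0.06) and DCUN1D5 (0.25 ± 0.05), cofactors that hold the NEDD8-charged enzyme against the cullin, rose as well. UBA3, the catalytic subunit of the NEDD8-activating enzyme, went the other way (-0.24 ± 0.05, limma adjusted p = 0.00678).

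Among 11 genes of NEDD8 removal, mostly subunits of the COP9 signalosome, 6 rose and 1 fell, with a median of 0.20. COPS2 was 1.53-fold higher (0.61 ± 0.05, limma adjusted p = 4.52e-05), at 437, 389 and 394 with shNC and 608, 638 and 620 with shPLEKHO1, and all 3 of its probe sets rose. COPS8 (0.41 ± 0.06) and COPS3 (0.31 ± 0.05) rose too. COPS7B fell 1.47-fold by its single probe set (-0.55 ± 0.08, limma adjusted p = 0.000659).

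Of 3 genes that exchange or block cullin cores, 1 rose and 1 fell. GLMN, which covers the RING surface of RBX1, was 1.51-fold higher, at 85.4, 82.0 and 90.3 against 130, 134 and 127 (0.60 ± 0.05, limma adjusted p = 6.25e-05). CAND1, which swaps the receptor modules of cullins, was lower by all 3 of its probe sets, from -0.59 to -0.19. The brightest of the 3 read 559, 501 and 487 against 437, 479 and 441 (limma adjusted p = 0.0324). This brightest probe set lost its call with median centring (adjusted p = 0.111), without normalization between arrays (0.0803), with the replicate block (0.0736), without shNC replicate 1 (0.0936) or 2 (0.0764) and without shPLEKHO1 replicate 1 (0.0933) or 3 (0.0976).

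The adaptors were divided: of 5, 1 rose and 2 fell. ELOC, elongin C, which links CUL2 and CUL5 to their receptors, fell by both of its probe sets (-0.39 ± 0.06 on the brighter, limma adjusted p = 0.000836, and -1.15 on the other). DDA1, a small subunit of CUL4 ligases, fell by all 3 of its probe sets (-0.52 ± 0.05, limma adjusted p = 0.000103), and DDB1, the CUL4 adaptor, rose by 2 of 4 (0.24 ± 0.05, limma adjusted p = 0.00728). SKP1, the CUL1 adaptor, did not pass by any of its 3 probe sets (-0.0043 ± 0.08 on the brightest).

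Of 6 measured ubiquitin-conjugating enzymes and RING-between-RING partners, 2 rose and 2 fell. UBE2G1, which extends ubiquitin chains on CUL4 substrates, was 2.03-fold lower, at 535, 499 and 537 with shNC and 248, 253 and 271 with shPLEKHO1 (-1.02 ± 0.06, limma adjusted p = 8.06e-06), and its other probe set fell as well (-0.39). CDC34, the chain-building enzyme of SCF ligases, rose (0.37 ± 0.06) and its close relative UBE2R2 fell (-0.29 ± 0.06). For ARIH1, which primes the substrates of neddylated cullins, the brightest of 3 probe sets rose (0.38 ± 0.05) and 1 fell (-0.85).

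**Figure D4:**
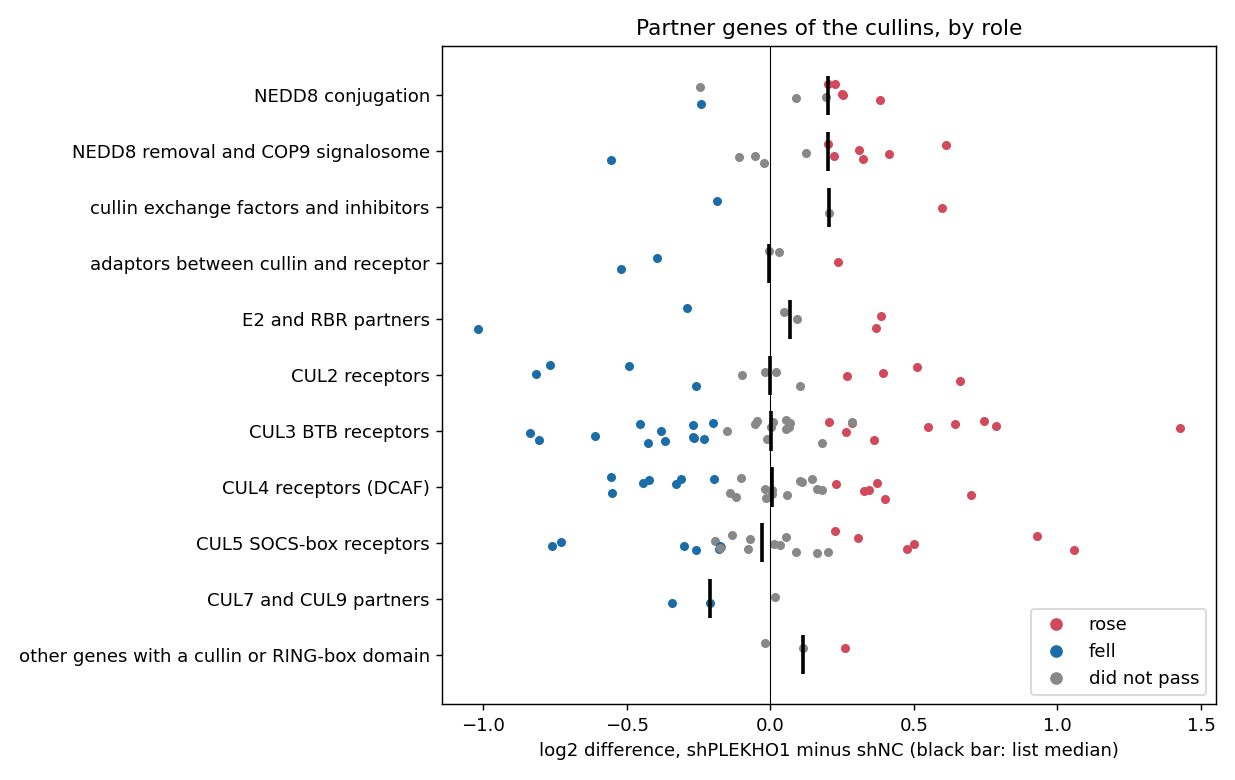
The log2 difference (shPLEKHO1 minus shNC, horizontal axis) of each of the 135 measured partner genes by its brightest probe set, in 11 lists by role, coloured by whether it rose, fell or did not pass, with a black bar at each list's median. The NEDD8 conjugation and removal lists have medians of 0.20, while the receptor lists of CUL2, CUL3, CUL4 and CUL5 are spread around 0.

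In the receptor lists of CUL2, CUL3, CUL4 and CUL5, genes moved in both directions; F-box receptors of CUL1 were not listed. Of 12 CUL2 receptors 4 rose and 4 fell (median 0.00). KLHDC2, which reads C-terminal degrons, was 1.70-fold lower, at 610, 612 and 620 against 360, 368 and 353 (-0.77 ± 0.05, limma adjusted p = 1.53e-05). KLHDC10 gave both directions: the brightest of its 4 probe sets fell (-0.82 ± 0.06), 1 more fell and 2 rose. The related receptors FEM1B (0.66 ± 0.06) and FEM1C (0.51 ± 0.05) rose.

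Of 33 measured BTB receptors of CUL3, 9 rose and 12 fell (median 0.00). KCTD10 was 2.69-fold higher, the largest change among the partner genes, at 298, 280 and 276 with shNC and 753, 755 and 790 with shPLEKHO1 (1.43 ± 0.05, limma adjusted p = 1.42e-06). All 4 of its probe sets rose. ENC1 (0.79 ± 0.05) rose by both of its probe sets, and RHOBTB3 (-0.84 ± 0.06) fell by all 4. SPOPL fell by its brightest probe set (-0.81 ± 0.05) and by 2 others, and a further 1 of its 4 rose (0.96).

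Of 26 CUL4 receptors 6 rose and 7 fell (median 0.01). DDB2, which finds ultraviolet damage in DNA, fell by both of its probe sets (-0.55 ± 0.06, limma adjusted p = 0.000167), and so did DCAF16 by all 4 (-0.44 ± 0.06). DCAF8 fell by 2 of 5 (-0.55 ± 0.05) and DCAF7 rose by 2 of 6 (0.40 ± 0.05).

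Of 24 measured SOCS-box receptors of CUL5, 6 rose and 6 fell (median -0.03). SOCS3, an inhibitor of cytokine receptors of the interleukin 6 family, was 2.08-fold higher, at 58.6, 53.8 and 55.0 against 117, 126 and 107 (1.06 ± 0.07, limma adjusted p = 1.36e-05). That probe set's mean with shNC (55.8) was level with the control probe set for background of 20 GC bases (55.3). With shPLEKHO1 it was above that control (117 against 59.8). The other of the 2 probe sets of SOCS3 rose by 0.47. ASB1 rose by its brighter probe set (0.93 ± 0.05), its other being at 0.02. The related WSB1 and WSB2 moved apart: WSB1 fell by 6 of 7 probe sets (-0.76 ± 0.05), and WSB2 rose by all 4 (0.50 ± 0.05).

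Of the 3 partners of CUL7 and CUL9, 2 fell. OBSL1, a scaffold of the CUL7 complex, fell by all 6 of its probe sets, between -0.94 and -0.27 (-0.34 ± 0.06 on the brightest, limma adjusted p = 0.0030). CCDC8 was dim and fell by 1 of 2 (-0.21 ± 0.06, limma adjusted p = 0.0293). It lost its call without each of shNC replicates 1, 2 and 3 and shPLEKHO1 replicates 1 and 3 in turn (adjusted p of 0.0509 to 0.10), with the replicate block (0.0560) and with a variance trend and robust fitting together (0.0736). Of 3 other genes with a cullin or RING box domain, CACUL1 rose by 1 of its 6 probe sets (0.26 ± 0.07, limma adjusted p = 0.0250). That call was lost without shNC replicate 2 (adjusted p = 0.0639) and without shPLEKHO1 replicate 2 (0.0628) or 3 (0.0839).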

How the data were processed

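RNA of 6 samples, 3 per hairpin, was hybridised to single-colour Affymetrix arrays. The deposited values are intensity on a linear scale. Per the submitters' processing notes the authors used Affymetrix Expression Console. Its version, its algorithm and whether arrays were normalized to each other: not given in the sources used here. Of 49395 probe sets, 102 controls and those with several symbols (1832) or none (2473) were left out. Values were taken as log2(intensity + 1), a pseudocount of 1 that understates changes of dim probe sets, and quantile normalized. Each of 44988 probe sets was fitted with lmFit and eBayes in limma 3.58.1 (R 4.3.3) with group as the only term, and p-values were adjusted by Benjamini-Hochberg over the 44988. The steps were tested on simulated data. The members, partner lists and tests were chosen with earlier results of these data known. From each partner list, up to 4 genes with the smallest p among those whose brightest probe set passed are named. Any gene whose brightest probe set passed and changed by 2-fold or more is named as well. Genes past 2-fold on another probe set only were not named for that. VHL and SKP1 were named after their values were seen. Symbols came from the platform annotation of the array and were checked by Entrez identifier against the RefSeq gene table of GRCh38.p14. In it 44961 matched, and no symbol changed. Alternatives were median centring, no normalization between arrays, no pseudocount, leaving out the lowest 30% of probe sets, array weights, a robust fit with a variance trend, a replicate block, 1 value per gene, leaving out each array in turn and, chosen after seeing the data, other probe sets for the ratios of related genes. The number of arrays limits the precision.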

Additional observations from a re-analysis of the deposited data

How the results depend on the processing

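Under the 13 alternatives for single probe sets, between 9 and 11 probe sets of the family rose and between 7 and 9 fell, and between 12572 and 16195 of all probe sets changed. Of 349 values of single cullin and RING box probe sets under an alternative, 334 stayed on their side of the threshold, 14 lost a call, 1 gained one and none reversed a call. The lost calls belong to CUL9 and to the dimmest probe sets of CUL4A and RNF7. Read as 1 probe set per gene or as the mean of all probe sets, 4 and 3 of the 10 genes rose and 4 and 4 fell. CUL3 made the difference, and CUL5 counts as fallen though 1 of its 3 probe sets rose. Over all genes read from their brightest probe set, 17.6% rose and 15.6% fell in the probe set fit. No such share is given here for the mean of probe sets. Replicate numbers did not pair the arrays: deviations of same-numbered arrays correlated at -0.15, -0.15 and -0.04. With the replicate block 9 probe sets of the family rose and 7 fell, and the calls lost were RNF7 11716756_at (adjusted p = 0.0628), CUL4A 11752001_a_at (0.0631) and CUL9 (0.0715), beside CAND1 (0.0736) and CCDC8 (0.0560) among the named partners. Other pairs of probe sets were an alternative chosen after seeing the data. Over these, the CUL4A to CUL4B ratio changed by 0.26, 0.48, 0.55, 0.59, 0.76, 1.19, 1.40 and 1.52. The RBX1 to RNF7 ratio changed by 0.34, 0.40, 0.57, 0.63, 0.74, 0.79 and 0.80. The shared direction was fixed beforehand and tests nothing, since each change is a difference of single probe set values given above. Every CUL4A and RBX1 value was positive and every CUL4B and RNF7 value negative. Among 36 named partner genes, 17 of 468 such values lost a call and none reversed; all 17 belong to CAND1, CCDC8 and CACUL1. The probes' GC content was not used here, and background control probe sets rise with it, from 4.80 to 2063 in mean intensity, so how far dim probe sets stand above background is not known.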
